A study of Mus musculus with 8 samples.

Results

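The glucocorticoid receptor and 8 of its best-known direct response genes were followed by RNA sequencing in mouse cardiac fibroblasts, which make the extracellular matrix of the heart. The 9 members were chosen by gene symbol (Nr3c1, Fkbp5, Tsc22d3, Sgk1, Zbtb16, Dusp1, Cdkn1c, Errfi1 and Pdk4), out of 54532 genes in the table, and all 9 were among the 12994 genes expressed enough to be tested. The study crossed a transgene with a culture medium in 4 groups of 2 libraries, all collected at day 7. The groups were cells with EphrinB2-overexpression in osteogenic differentiation, vector cells in osteogenic differentiation, cells with EphrinB2-overexpression in complete medium and vector cells in complete medium. EphrinB2, encoded by Efnb2, is a membrane-bound ligand of Eph receptors. No source used here gives the strain, age or number of animals, the vector or the recipes of the media. Whether the libraries of a group are separate cultures is not stated either, so the p-values reflect the spread of these libraries alone, and that spread may be technical.

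The glucocorticoid receptor, the product of Nr3c1, is a nuclear receptor that waits in the cytoplasm in a complex with heat shock proteins. Once it binds cortisol, corticosterone or a synthetic steroid such as dexamethasone, it enters the nucleus, binds DNA at glucocorticoid response elements and turns nearby genes on, while it lowers many inflammatory genes. Several of the genes it turns on restrain signalling, among them its own (Fkbp5), NF-kappaB and AP-1 signalling (Tsc22d3), MAP kinases (Dusp1) and the EGF receptor (Errfi1). In fibroblast and bone cell culture, dexamethasone is a common component of osteogenic media; no source used here says whether this medium held it.

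Levels are given as FPKM, a read density that corrects for exon length and sequencing depth. The libraries held 16493910 to 20550771 counted reads, as estimated from the steps between low FPKM values. Efnb2 stood at 5.02 to 18.3 FPKM in EphrinB2 cells in osteogenic medium and 1.27 to 1.39 in vector cells in osteogenic medium, and at 31.3 to 32.8 in EphrinB2 cells in complete medium and 5.56 to 6.3 in vector cells in complete medium. EphrinB2 complete replicate 2 and EphrinB2 osteogenic replicate 1 stood apart from their partners. They were picked after the values were seen, and a gap between partners does not by itself tell which partner departs. Fits without them have a smaller spread through that choice. The difference between partners went with gene length in EphrinB2 cells. The Spearman rank correlation with length, across genes, was -0.51 in osteogenic and -0.44 in complete medium for replicate 1 minus replicate 2, against 0.018 and -0.037 in vector cells. All 15 fibroblast markers passed the expression filter, and so did all 21 macrophage markers. In such bulk RNA, fewer cells of a type and less RNA per cell cannot be told apart. Summed macrophage markers stood at 4531 to 9012 FPKM in EphrinB2 and 5123 to 5391 in vector cells in osteogenic medium, and at 1064 to 1995 in EphrinB2 and 2101 to 2376 in vector cells in complete medium. They were higher in osteogenic medium in both kinds of cell, and 0 of the 21 were at 0 in any group. Lyz2 made up most of each sum, with means of 4520 FPKM in EphrinB2 and 3418 in vector cells in osteogenic medium. In complete medium its means were 939 and 1493. Lyz2 rose in EphrinB2 cells and did not pass in vector cells (adjusted p = 0.236, limma). Of the 21, 16 rose and 1 fell in EphrinB2 cells between media, and 8 rose and 0 fell in vector cells. For this and the lists that follow, 6.36% of all tested genes rose and 5.44% fell in EphrinB2 cells. In vector cells 4.41% rose and 3.11% fell. Of 12 listed adipocyte markers 6 were tested, and 5 rose in each kind of cell, among them Fabp4, while Pparg did not pass. The sum of the 12 was 105 to 144 FPKM in EphrinB2 and 99.1 to 104 in vector cells in osteogenic medium. In complete medium it was 33.9 in both EphrinB2 and 33.6 to 34.5 in both vector libraries. The other 6, Adipoq and Plin1 among them, did not reach the filter. They were at 0 in vector cells in complete medium and at most 0.448 FPKM (Cfd) in osteogenic medium. Adipoq reached at most 0.141 there and Plin1 0.067. Of the 15 fibroblast markers, 2 rose and 5 fell in each kind of cell. Of 7 tested osteoblast markers, 2 rose and 2 fell in EphrinB2 cells and 1 rose and 2 fell in vector cells. The sum of the 15 listed osteoblast markers was 1486 to 1734 FPKM in EphrinB2 and 1548 to 1566 in vector cells in osteogenic medium. In complete medium it was higher, at 3807 to 4586 and 4421 to 4455. Of 5 endothelial markers 1 fell in each kind of cell, of 7 smooth muscle markers 1 fell in EphrinB2 and 0 in vector cells, the 1 tested cardiomyocyte marker, Tnnt2, rose in each, and 0 of 10 lymphocyte markers reached the filter. A call of 1 gene in a list is no result about that list. The sum of the 12 listed smooth muscle markers was 698 to 952 FPKM in EphrinB2 and 479 to 588 in vector cells in osteogenic medium. In complete medium it was higher, at 1067 to 1113 and 849 to 986. The part of these cell types in the results below was not tested.

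Differences below are log2 differences on the scale log2(FPKM + 1), with a standard error (SE) from a limma model of all 8 libraries. The model gives all groups 1 spread per gene. Across genes, partner differences had a standard deviation of 0.66 in osteogenic and 0.52 in complete medium in EphrinB2 cells. In vector cells it was 0.23 and 0.26. The shared SE and intervals may thus be too narrow for EphrinB2 and too wide for vector cells. This scale understates the change of genes with low levels. Rose and fell are written only of genes with an adjusted p below 0.05 (Benjamini-Hochberg, across the 12994 tested genes).

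Promoter windows of 300 bases, from 250 bases before to 50 after a transcript start, were taken from RefSeq on GRCm38.p6, the assembly of the deposited values. The search covered 14 windows of 6 of the 9 members. Zbtb16 and Cdkn1c had no entry, and Nr3c1 was left out of the search, so the counts of sites among members below do not include the receptor gene. The letters of 3 forms of the receptor's binding site were searched on both strands. The full inverted repeat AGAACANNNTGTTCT stood in 0.00913% of 32851 windows of all genes, its looser core GNACANNNTGTNC in 0.475% and the single arm AGAACA, which also forms each side of a full repeat, in 19.0%. The cAMP response element TGACGTCA, a site of the factor CREB, stood in 1.79%. Among the 14 windows, 1 held the full repeat (with the core inside it), 4 held a single arm and 2 held a cAMP response element. The 4 windows below belong to Sgk1, Tsc22d3 and Fkbp5, which rose between media, and to Dusp1, which did not pass. That of Sgk1 holds the full repeat. The other window with a cAMP response element belongs to Errfi1, which rose, and is not shown. Capitals mark the sites found, and the Fkbp5 window has none. Matches are descriptions of letters and not evidence of binding.
Sgk1, chr10:21993640-21993939, plus strand: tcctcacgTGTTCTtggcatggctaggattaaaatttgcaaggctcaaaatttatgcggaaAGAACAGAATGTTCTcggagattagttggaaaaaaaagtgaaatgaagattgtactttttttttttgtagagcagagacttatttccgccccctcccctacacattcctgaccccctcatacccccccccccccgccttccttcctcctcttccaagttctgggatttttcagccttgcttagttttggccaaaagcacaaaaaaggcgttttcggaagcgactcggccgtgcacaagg
Tsc22d3, chrX:140600473-140600772, minus strand: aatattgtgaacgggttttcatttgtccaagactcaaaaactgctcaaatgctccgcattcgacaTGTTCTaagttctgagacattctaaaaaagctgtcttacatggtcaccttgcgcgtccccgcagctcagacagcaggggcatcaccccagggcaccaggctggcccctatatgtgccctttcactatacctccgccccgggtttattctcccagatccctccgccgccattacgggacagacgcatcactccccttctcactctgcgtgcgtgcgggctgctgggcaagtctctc
Dusp1, chr17:26508423-26508722, minus strand: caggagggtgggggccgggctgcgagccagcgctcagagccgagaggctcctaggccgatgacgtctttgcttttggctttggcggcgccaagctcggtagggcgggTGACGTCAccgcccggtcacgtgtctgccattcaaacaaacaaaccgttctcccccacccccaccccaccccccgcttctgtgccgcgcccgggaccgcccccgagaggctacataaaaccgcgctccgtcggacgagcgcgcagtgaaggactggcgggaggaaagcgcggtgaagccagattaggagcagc
Fkbp5, chr17:28486100-28486399, minus strand: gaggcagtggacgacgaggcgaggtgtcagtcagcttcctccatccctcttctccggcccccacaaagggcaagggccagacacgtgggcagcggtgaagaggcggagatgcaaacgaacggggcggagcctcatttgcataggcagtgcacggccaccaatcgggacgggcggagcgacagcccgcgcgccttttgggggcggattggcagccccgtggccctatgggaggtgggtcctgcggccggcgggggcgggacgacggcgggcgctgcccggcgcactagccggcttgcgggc

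Osteogenic against complete medium asks how the receptor and its targets differed between the media, in EphrinB2 and in vector cells separately. Of the 9 members, 7 rose and 0 fell in EphrinB2 cells, where 6.36% of all tested genes rose and 11.8% changed in either direction, and 7 rose and 0 fell in vector cells, where 4.41% rose and 7.52% changed. They were the same 7 genes, Fkbp5, Tsc22d3, Sgk1, Zbtb16, Cdkn1c, Errfi1 and Pdk4. The 9 members were chosen with earlier results of these data known, so these counts are no independent test. The receptor itself and Dusp1 did not pass the threshold in either kind of cell, though in EphrinB2 cells all 9 members had an unadjusted p below 0.05, as 30.2% of tested genes did. The libraries of the media did not overlap for any of the 9, with 8 higher and 1 lower in osteogenic medium in each kind of cell. Of all tested genes, 24.3% were higher and 23.6% lower without overlap in EphrinB2 cells (47.9% together), and 34.4% and 38.8% in vector cells (73.2% together). The median difference of the 9 members was 3.60 in EphrinB2 cells, against 0.03 over all tested genes, and 3.59 in vector cells, against -0.02. Without both libraries that stood apart, 1 EphrinB2 library was left in each medium, and all 9 members passed in vector cells, where 40.6% of tested genes did. With the 4 EphrinB2 libraries alone 6 members passed, where 1.18% of tested genes did, and with the 4 vector libraries alone all 9 passed, where 40.6% did.

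**Figure D1:**
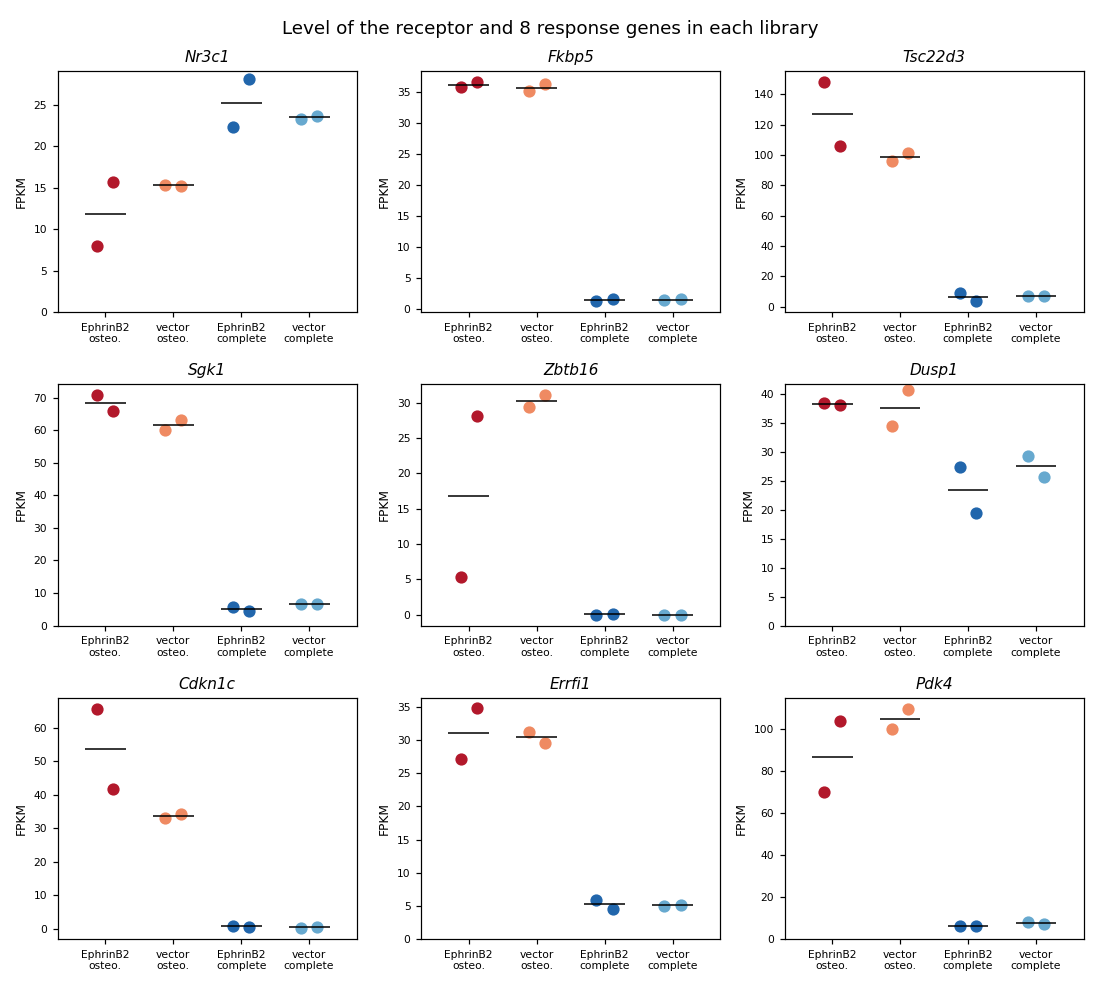
FPKM of the receptor Nr3c1 and its 8 response genes in each library, 1 panel a gene; points are libraries, replicate 1 left of replicate 2, and bars are means of 2 libraries. Every response gene lay higher in osteogenic (osteo.) than in complete medium in both kinds of cell, and Nr3c1 lay lower; Zbtb16 and Nr3c1 were split between the EphrinB2 osteogenic libraries.

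The receptor, Nr3c1 (ENSMUSG00000024431, GRCm38 chromosome 18, 39410545 to 39519421, minus strand), stood at 7.94 and 15.7 FPKM in EphrinB2 cells in osteogenic medium, and at 15.3 and 15.2 in vector cells in osteogenic medium. In complete medium it stood at 22.4 and 28.1 in EphrinB2 cells and at 23.3 and 23.6 in vector cells. All 4 osteogenic libraries were below all 4 complete ones, and EphrinB2 osteogenic replicate 1 was lowest. The difference was -1.10 (SE 0.29, adjusted p = 0.0585) in EphrinB2 cells and -0.59 (SE 0.29, adjusted p = 0.352) in vector cells (limma). In EphrinB2 cells the value moved to -1.54 without osteogenic replicate 2, which leaves the library that stood apart as the only EphrinB2 osteogenic library. It moved to -0.65 without osteogenic replicate 1, and to -0.49 without both libraries that stood apart, which leaves 1 EphrinB2 library against 1. With 1 library in a group, only the size of these differences is given. With all 8 libraries, it passed at -0.87 with the length trend of each library removed (adjusted p = 0.0245). It also passed, narrowly, at -1.12 with libraries shifted to the same median (adjusted p = 0.0498). In vector cells the same difference passed in the vector libraries alone (adjusted p = 0.00118) and, narrowly, without EphrinB2 osteogenic replicate 1 or 2 (adjusted p = 0.0457 and 0.0456), since only the spread then changes.

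Length stood beside this spread. Nr3c1 has 7684 bases of merged exon, and replicate 1 minus replicate 2 of EphrinB2 cells in osteogenic medium was -0.90 for it. The median of 1014 tested genes within 10% of its length was -0.33, and 9.17% of them lay below Nr3c1. The genes with the pattern closest to that of Nr3c1 over the 8 libraries, by Euclidean distance of centred log2 values among 9295 named protein-coding genes, were Arhgap5, Gnaq, Rassf8, Zfp36l1 and Smurf2. Their distances ran from 0.093 to 0.17 and their Pearson r from 0.994 to 0.999 over 8 libraries that share 2 media. Of these, Gnaq encodes a G protein subunit, Zfp36l1 an mRNA decay factor and Smurf2 a ubiquitin ligase. Of the 5, 4 have 5559 to 10887 bases of exon and Zfp36l1 has 2990.

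Fkbp5 (ENSMUSG00000024222, chromosome 17, 28399094 to 28517527, minus strand) encodes a co-chaperone that lowers the receptor's affinity for hormone. It stood at 35.8 and 36.7 FPKM in EphrinB2 and at 35.2 and 36.3 in vector cells in osteogenic medium, and at 1.30 and 1.58 in EphrinB2 and 1.40 and 1.71 in vector cells in complete medium. The osteogenic libraries lay within a range of 35.2 to 36.7 whatever the transgene, including the library that stood apart. Its rise was 3.94 (SE 0.14, adjusted p = 6.42e-05) in EphrinB2 cells and 3.85 (SE 0.14, adjusted p = 8.09e-05) in vector cells (limma), at rank 23 and rank 19 from the top of 12994 differences. The mean FPKM in osteogenic medium was 25.2 times that in complete medium in EphrinB2 cells and 23.0 times in vector cells. Its level on the length-corrected FPKM scale passed that of Nr3c1 in every osteogenic library and lay below it in every complete one. The promoter window of Fkbp5 shown above lies at an annotated start, and 70.7% of its bases are G or C. The gene's span overlaps 4 other annotated genes, 2 of them on its own strand, and no source used here gives the strand setting of the counting.

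Tsc22d3 (ENSMUSG00000031431, chromosome X, 140539528 to 140600659, minus strand) encodes GILZ, a leucine zipper protein that binds and restrains inflammatory transcription factors. It stood at 148 and 106 FPKM in EphrinB2 and at 96.0 and 102 in vector cells in osteogenic medium, and at 9.25 and 3.63 in EphrinB2 and 7.09 and 7.03 in vector cells in complete medium. The highest osteogenic and the lowest complete value belonged to the libraries that stood apart. The rise was 4.20 (SE 0.37, adjusted p = 0.00131) in EphrinB2 cells and 3.63 (SE 0.37, adjusted p = 0.00268) in vector cells (limma). Without those libraries the difference was 3.39 in EphrinB2 cells, a fit that leaves 1 EphrinB2 library against 1, so only its size is given. The arm in its window lies at positions -185 to -180 from a RefSeq start that is 137 bases from the nearest start in GENCODE M21.

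Sgk1 (ENSMUSG00000019970, chromosome 10, 21882184 to 21999903, plus strand) encodes a kinase that acts downstream of PI3K and regulates ion transport and cell survival. It stood at 70.8 and 66.0 FPKM in EphrinB2 and at 60.1 and 63.2 in vector cells in osteogenic medium, and at 5.77 and 4.53 in EphrinB2 and 6.69 and 6.62 in vector cells in complete medium. EphrinB2 libraries lay above vector libraries in osteogenic and below them in complete medium. It rose by 3.50 (SE 0.16, adjusted p = 0.000176) in EphrinB2 and 3.03 (SE 0.16, adjusted p = 0.000233) in vector cells (limma). The full inverted repeat in the window shown above lies at chr10:21993701-21993715, at positions -189 to -175 from the start of a shorter annotated transcript, and 5 longer transcripts of the gene run across the window. Of the 6 Sgk1 windows, 1 held the full repeat and 3 held a single arm. The FPKM of Sgk1 sums all its transcripts and does not tell which start was used.

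Zbtb16 (ENSMUSG00000066687, chromosome 9, 48654297 to 48836222, minus strand) encodes the transcription factor PLZF. It stood at 5.31 and 28.2 FPKM in EphrinB2 and at 29.4 and 31.1 in vector cells in osteogenic medium, and at 0.0098 and 0.023 in EphrinB2 and 0 and 0.0102 in vector cells in complete medium. EphrinB2 osteogenic replicate 1 lay far below the other osteogenic libraries and still far above every complete one. The complete libraries of either kind of cell held 0 to 2 estimated reads of it. From these reads, osteogenic over complete was 1034 in EphrinB2 cells, with an exact 95% interval of 353 to 5015 from 3450 against 3 reads, and 5965 in vector cells, with an interval of 1070 to 235629 from 6182 against 1 read; these intervals cover counting error only. On the scale of the test the rise was 3.74 (SE 0.61, adjusted p = 0.0124) in EphrinB2 cells and 4.96 (SE 0.61, adjusted p = 0.00531) in vector cells (limma). EphrinB2 osteogenic replicate 1 lay 2.21 below its partner, while the median of 1352 genes of like length was -0.16 and 0.074% of them lay below Zbtb16. The call was lost in EphrinB2 cells without complete replicate 2 (adjusted p = 0.0803) or with the EphrinB2 libraries alone (adjusted p = 0.0789), and in vector cells without any 1 of the 4 vector libraries (adjusted p = 0.0511 to 0.059); over all alternatives the adjusted p ran from 0.000166 to 0.0803 in EphrinB2 and from 4.21e-05 to 0.059 in vector cells. Without both libraries that stood apart, which leaves 1 EphrinB2 library against 1, the difference was 4.85 in EphrinB2 and 4.96 in vector cells. Only the size is given, since such a fit holds no spread between EphrinB2 libraries.

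Cdkn1c (ENSMUSG00000037664, chromosome 7, 143458339 to 143461050, minus strand) encodes the cyclin-dependent kinase inhibitor p57, which holds cells out of division. It stood at 65.7 and 41.6 FPKM in EphrinB2 and at 32.9 and 34.4 in vector cells in osteogenic medium, and at 0.762 and 0.624 in EphrinB2 and 0.209 and 0.633 in vector cells in complete medium. In complete medium these are 8 to 30 estimated reads. It rose by 4.98 (SE 0.25, adjusted p = 0.000179) in EphrinB2 and 4.62 (SE 0.25, adjusted p = 0.000245) in vector cells (limma), at rank 8 and rank 10 from the top of 12994 differences. Its mean FPKM in osteogenic medium was 77.3 times that in complete medium in EphrinB2 and 79.9 times in vector cells. The related inhibitors Cdkn1a (p21) and Cdkn1b (p27) did not pass: Cdkn1a stood at -0.38 (adjusted p = 0.164) in EphrinB2 and -0.39 (adjusted p = 0.241) in vector cells, and Cdkn1b at 0.46 (adjusted p = 0.13) and 0.71 (adjusted p = 0.0552). A gene on the other strand overlaps Cdkn1c.

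Errfi1 (ENSMUSG00000028967, chromosome 4, 150853919 to 150868892, plus strand) encodes MIG6, which binds and inhibits the EGF receptor. It stood at 27.2 and 34.9 FPKM in EphrinB2 and at 31.2 and 29.6 in vector cells in osteogenic medium, and at 5.93 and 4.52 in EphrinB2 and 5.05 and 5.15 in vector cells in complete medium. Its rise was 2.36 (SE 0.18) in each kind of cell, with adjusted p = 0.000922 in EphrinB2 and 0.000963 in vector cells (limma), the smallest among the 7 members that rose. A cAMP response element stood at positions -51 to -44 from a RefSeq start, at chr4:150855019-150855026.

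Pdk4 (ENSMUSG00000019577, chromosome 6, 5483351 to 5496309, minus strand) encodes a mitochondrial kinase that shuts off pyruvate dehydrogenase and so spares glucose. It stood at 69.9 and 104 FPKM in EphrinB2 and at 100 and 110 in vector cells in osteogenic medium, and at 6.19 and 6.03 in EphrinB2 and 8.34 and 7.32 in vector cells in complete medium. EphrinB2 osteogenic replicate 1 was the lowest of the osteogenic libraries, still far above every complete one. The rise was 3.60 (SE 0.22, adjusted p = 0.000333) in EphrinB2 and 3.59 (SE 0.22, adjusted p = 0.000352) in vector cells (limma). Its relative Pdk2 rose by 0.72 (adjusted p = 0.0314) in EphrinB2 and 0.80 (adjusted p = 0.0271) in vector cells. Of 11 tested paralogs of the members, 2 rose in EphrinB2 cells (Pdk2 and Tsc22d4) and 1 in vector cells (Pdk2), and 0 fell in either, where 6.36% and 4.41% of all tested genes rose; so few calls are no result about the paralogs.

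Dusp1 (ENSMUSG00000024190, chromosome 17, 26505590 to 26562128, minus strand) encodes the phosphatase MKP-1, which switches off p38 and JNK. It stood at 38.3 and 38.1 FPKM in EphrinB2 and at 34.5 and 40.5 in vector cells in osteogenic medium, and at 27.4 and 19.4 in EphrinB2 and 29.3 and 25.6 in vector cells in complete medium. It was already high in complete medium, and the groups did not overlap, but the gap was small beside those of the other response genes. The difference was 0.70 (SE 0.21, adjusted p = 0.0761) in EphrinB2 and 0.43 (SE 0.21, adjusted p = 0.327) in vector cells (limma). Among the alternatives, the difference moved to 0.94 in EphrinB2 cells without complete replicate 1. That fit leaves the library that stood apart as the only EphrinB2 complete library, so only the size is given. In vector cells the difference passed with the vector libraries alone (adjusted p = 0.0331, limma). The cAMP response element in the window shown lies at positions -143 to -136 from an annotated start. The gene's span overlaps 2 other annotated genes on each strand.

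**Figure D2:**
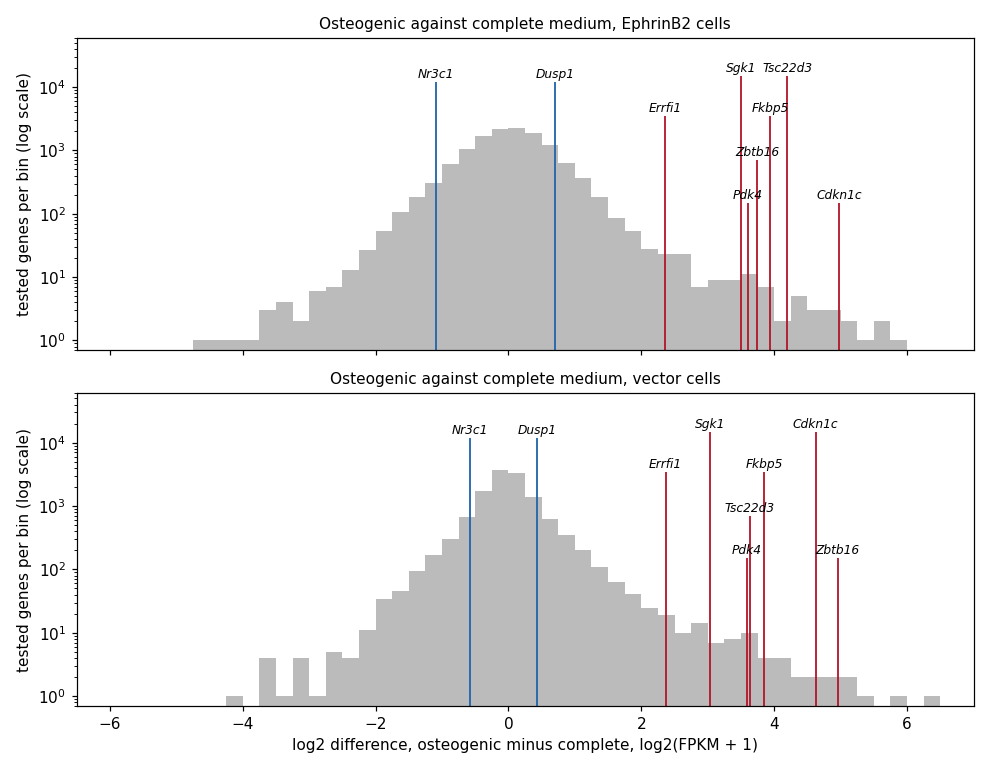
Histogram of the log2 difference between osteogenic and complete medium over 12994 tested genes, with a log count axis, in EphrinB2 cells (top) and vector cells (bottom); lines mark the members, red where they rose past the threshold and blue where they did not pass. The 7 that rose stand at 2.36 or above in each panel, while Dusp1 and Nr3c1 stand at 0.70 and -1.10 in EphrinB2 cells and at 0.43 and -0.59 in vector cells.

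The gap between the EphrinB2 partners differed from member to member. In osteogenic medium, replicate 1 minus replicate 2 was -0.04 for Fkbp5 and 0.10 for Sgk1, against -0.35 for Errfi1, 0.48 for Tsc22d3, -0.57 for Pdk4, 0.65 for Cdkn1c and -2.21 for Zbtb16. For the members that did not pass, it was 0.0078 for Dusp1 and -0.90 for Nr3c1. Vector partners in that medium differed by -0.23 to 0.08 in all 9 members. The genes whose pattern lay closest to that of Fkbp5 by the same distance were Fmo1, Cldn11, Slc10a6, Vsig4 and Sparcl1, at distances of 0.34 to 0.55, with Pearson r of 0.996 to 0.998 over the 8 libraries. Fmo1 encodes a flavin monooxygenase, Cldn11 a tight junction claudin, Slc10a6 a steroid sulfate transporter, Vsig4 a complement receptor of macrophages and Sparcl1 a matricellular protein. Within the set, Pdk4 lay nearest to Fkbp5 (0.75) and Nr3c1 farthest (6.74).

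Among 36 other genes known to be induced by glucocorticoids, 33 were expressed enough to be tested, and 19 rose and 0 fell in EphrinB2 cells, where 6.36% of all tested genes rose, and 17 rose and 0 fell in vector cells, where 4.41% rose. The median difference was 1.33 in EphrinB2 cells (0.03 over all tested genes) and 1.26 in vector cells (-0.02 over all). The list was chosen with earlier results of these data known, so these shares are no independent test. The phenol sulfotransferase Sult1a1 rose by 4.30 in EphrinB2 and 4.29 in vector cells, the glycosyltransferase Galnt15 by 3.63 and 3.97, and the transcription factor Klf15, a regulator of amino acid metabolism, by 3.14 and 2.83. Slc10a6 stood at 38.7 ± 6.38 FPKM in EphrinB2 and 32.2 ± 1.46 in vector cells in osteogenic medium, and at 1.07 ± 0.101 in EphrinB2 and 1.22 ± 0.131 in vector cells in complete medium (SD, n = 2). The scavenger receptor Cd163, which is also a macrophage marker, rose by 3.43 in EphrinB2 and 4.01 in vector cells. Of the genes of the list with the highest level, the metallothionein Mt1 rose by 3.58 in EphrinB2 and 2.81 in vector cells. Anxa1, an anti-inflammatory annexin, rose by 1.74 in EphrinB2 cells (adjusted p = 0.0133) and stood at 1.22 in vector cells (adjusted p = 0.0549). Tensin, Tns1, stood at 0.0058 in EphrinB2 and 0.99 in vector cells (adjusted p = 0.995 and 0.367; limma). Named after their values were seen, the clock repressor Per1 rose in both kinds of cell (1.57 in EphrinB2 and 1.86 in vector cells), and the transcription factor Klf9 stood at 1.26 in EphrinB2 cells (adjusted p = 0.139) and rose by 2.18 in vector cells (adjusted p = 0.0431). In alternatives added after seeing the data, the count that rose was 27 of 33 in EphrinB2 and 30 in vector cells without both libraries that stood apart, fits in which 29.7% and 40.6% of all tested genes passed in either direction. The count was 9 with the EphrinB2 libraries alone and 30 with the vector libraries alone, where 1.18% and 40.6% of all tested genes passed.

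**Figure D3:**
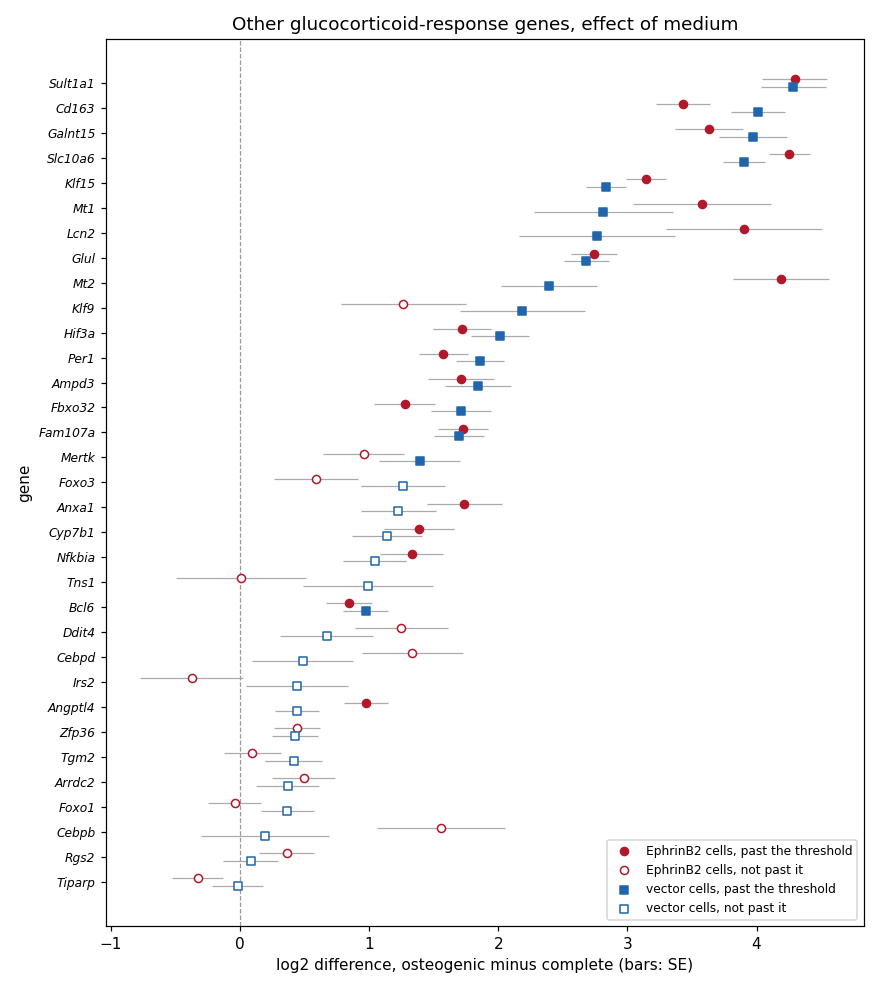
Log2 difference between osteogenic and complete medium for 33 other glucocorticoid-response genes in EphrinB2 cells (red circles) and vector cells (blue squares), with SE as bars; filled symbols passed the threshold. Filled symbols lie only on the positive side, 19 in EphrinB2 and 17 in vector cells. The list was chosen with earlier results of these data known.

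The machinery around the receptor showed no calls between media. Of 15 chaperones and co-chaperones, 20 tested coregulators and 4 tested genes of steroid supply or related receptors, 0 rose and 0 fell in either kind of cell (limma). Of all tested genes, 11.8% changed in EphrinB2 and 7.52% in vector cells. The absence of calls does not show that levels were equal. The median difference in EphrinB2 and vector cells was -0.43 and -0.11 for the coregulators and -0.09 and -0.23 for the chaperones. It was 0.36 and 0.53 for the steroid genes, against 0.03 and -0.02 over all tested genes. The chaperone Hsp90ab1, which holds the unbound receptor, stood at 345 ± 55.5 FPKM in EphrinB2 and 306 ± 2.6 in vector cells in osteogenic medium, and at 412 ± 30.6 in EphrinB2 and 385 ± 3.1 in vector cells in complete medium (SD, n = 2). Hsd11b1, the enzyme that turns inactive 11-keto steroids into active hormone, stood at 67.3 ± 14.5 and 53.3 ± 4.44 in EphrinB2 and vector cells in osteogenic medium and at 60.2 ± 29.7 and 75.7 ± 2.43 in complete medium. H6pd, which supplies its cofactor, stood at a difference of 0.48 in EphrinB2 (adjusted p = 0.43) and 1.18 in vector cells (adjusted p = 0.167). Fkbp4, the co-chaperone that competes with the product of Fkbp5, stood at 0.28 in EphrinB2 cells (adjusted p = 0.342) and -0.06 in vector cells (adjusted p = 0.946).

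Among 19 tested genes that glucocorticoids are known to lower, 3 fell and 1 rose in each kind of cell, where 5.44% of all tested genes fell in EphrinB2 and 3.11% in vector cells. The cytokines Lif and Il6 and the collagenase Mmp13 fell in both. Lif stood at 0.905 ± 0.204 FPKM in EphrinB2 and 1.13 ± 0.235 in vector cells in osteogenic medium, and at 5.56 ± 0.0354 in EphrinB2 and 6.31 ± 1.09 in vector cells in complete medium (SD, n = 2; log2 difference between media -1.79 in EphrinB2 and -1.78 in vector cells). The chemokine Cxcl5 rose in EphrinB2 cells (2.02, adjusted p = 0.00426), and the gelatinase Mmp9 rose in vector cells (1.79, adjusted p = 0.0118). The chemokine Ccl2 stood at 0.78 in EphrinB2 and -0.87 in vector cells (adjusted p = 0.325 and 0.463; limma). The median of the list was 0.22 in EphrinB2 and -0.10 in vector cells.

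Among 23 tested MAP kinase feedback and immediate early genes, which signalling or handling of cells can raise within minutes, Fos and the ERK phosphatase Dusp6 rose in both kinds of cell. These 2 of 23 stand beside 6.36% of all tested genes that rose in EphrinB2 and 4.41% in vector cells, a share too near the list's own to be a result about the list. Fos, a subunit of AP-1, rose by 1.51 in EphrinB2 and 1.44 in vector cells, and Dusp6 by 0.74 in EphrinB2 and 0.88 in vector cells. Dusp8 fell in EphrinB2 cells by 0.73 (adjusted p = 0.0333; limma). The 3 genes of the list with the highest level, Spry1, Junb and Spry2, did not pass. The list's median was -0.39 in EphrinB2 and -0.31 in vector cells.

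EphrinB2 against vector cells asks whether overexpression of the ligand went with other levels of these genes in the same medium. In osteogenic medium, 0 of 9 members passed and 1 (Cdkn1c) had an unadjusted p below 0.05, against 0.0% of all tested genes called and 3.39% with an unadjusted p below 0.05. Between the groups in complete medium, 0 passed and 0 had an unadjusted p below 0.05, against 0.0077% of all genes called and 1.29% with an unadjusted p below 0.05 (limma). These comparisons share their EphrinB2 and vector libraries with the comparisons of media above. EphrinB2 and vector libraries did not overlap for 4 of 9 members in osteogenic medium and 2 of 9 in complete medium, where 47.9% and 25.8% of all tested genes did not overlap. In osteogenic medium 3 of the 4 were higher and 1 lower in EphrinB2 cells (25.6% and 22.3% of all tested genes), and in complete medium both were lower (11.5%).

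In osteogenic medium, Cdkn1c stood higher in EphrinB2 cells by 0.62 (95% interval 0.03 to 1.21, adjusted p = 0.567), Tsc22d3 by 0.34 (-0.53 to 1.22) and Sgk1 by 0.15 (-0.23 to 0.53). Zbtb16 stood at -1.20 (-2.67 to 0.26, adjusted p = 0.567) and the receptor at -0.42 (-1.11 to 0.28). Fkbp5, at 0.02 (-0.32 to 0.35), had the narrowest interval of the 9. Without EphrinB2 osteogenic replicate 2, which leaves the library that stood apart as the only EphrinB2 library in that medium, 4 members passed, where 2742 of all tested genes (21.1%) did: Nr3c1 at -0.87, Zbtb16 at -2.31, Pdk4 at -0.58 and Cdkn1c at 0.94. Without replicate 1 in its place, 0 members passed, and Zbtb16 stood at -0.10 and Nr3c1 at 0.03.

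In complete medium the differences ran from -0.32 for Sgk1 (-0.70 to 0.06) to 0.27 for Cdkn1c (-0.32 to 0.86). Tsc22d3 stood at -0.23 (-1.10 to 0.65), and at 0.35 without EphrinB2 complete replicate 2, whose 3.63 FPKM was the lowest of the 4 complete libraries. Zbtb16, with 0 to 2 reads a library, could not be told apart between these groups at this depth.

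**Figure D4:**
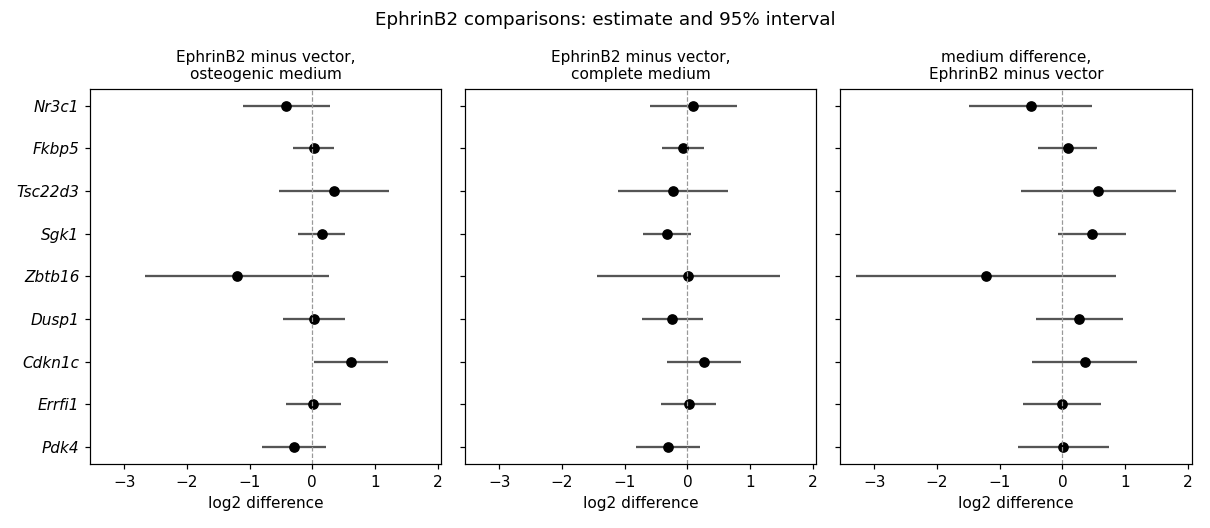
EphrinB2 minus vector in osteogenic medium (left) and in complete medium (middle), and the medium difference in EphrinB2 cells minus that in vector cells (right), for each member as a log2 difference (point) with its 95% interval (line). Every interval spans 0 apart from that of Cdkn1c in osteogenic medium, 0.03 to 1.21.

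The interaction asks whether the response to the medium differed between EphrinB2 and vector cells. It passed for 0 of 9 members, with 0 at an unadjusted p below 0.05, and for 0.0% of all tested genes, with 1.65% at an unadjusted p below 0.05 (limma). Its estimate was nearest to 0 for Errfi1 (-0.003, SE 0.26) and Pdk4 (0.01, SE 0.30), and 0.08 for Fkbp5 (95% interval -0.39 to 0.56). It was 0.47 for Sgk1 (-0.07 to 1.01, adjusted p = 0.746), whose EphrinB2 libraries lay on opposite sides of the vector libraries in the 2 media, and -1.22 for Zbtb16 (-3.29 to 0.86). Without both libraries that stood apart, the interaction stood at -0.10 for Zbtb16 and at 0.28 for Sgk1.

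On the order of levels, every response gene had its EphrinB2 and vector osteogenic groups on top and the complete groups below, with no overlap between media. Between the osteogenic groups, libraries overlapped for Nr3c1, Fkbp5, Dusp1, Errfi1 and Pdk4, and between the complete groups they overlapped for all but Sgk1 and Pdk4. In osteogenic medium the highest mean levels of the 9 in vector cells were those of Pdk4 (105 ± 6.8 FPKM, SD, n = 2) and Tsc22d3 (98.8 ± 4.01), and in complete medium those of Dusp1 (27.5 ± 2.59) and Nr3c1 (23.5 ± 0.234).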

How the data were processed

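RNA sequencing of 8 libraries of mouse cardiac fibroblasts gave 1 table of FPKM values, deposited by the authors, with 54532 Ensembl genes. Tools named in the submitters' processing notes are HISAT2 2.0.5, CASAVA, DESeq2 1.16.1 and featureCounts 1.5.0-p3, and the build named there is mm10; no source used here gives the annotation release, strand setting or filters. GENCODE M21 (GRCm38, of which mm10 is another name) supplied symbols, positions and merged exon lengths for 54409 identifiers and lacked 123. Multiplied by exon length, 98.1% to 98.3% of values under 50 reads came out as whole reads (tolerance 0.02), and depth and read numbers were estimated from these steps. Since FPKM was deposited, the test used was one for log values.

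Genes with at least 1 FPKM in at least 2 libraries (12994) were tested as log2(FPKM + 1) in limma 3.58.1 (R 4.3.3), with a mean per group, a mean-variance trend, 4 residual and 2.72 prior degrees of freedom and two-sided moderated tests. The steps were tested on simulated data. Alternatives covered the pseudocount (0.1 and 0.5), no filter and a filter at 5 FPKM, no trend, median and quantile scaling, removal of each library's trend on length, fits of 4 libraries and leaving out libraries. Replicates are numbered in listed order.

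The 9 members and all gene lists were chosen with earlier results of these data known. Genes named were taken from the 9 members, the 3 with the highest level of each other list and up to 5 of its genes past the threshold in either comparison of media (largest difference in vector cells first), and the 5 closest in pattern to Nr3c1 and Fkbp5; exceptions are marked.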

Additional observations from a re-analysis of the deposited data

How the results depend on the processing

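Across all alternatives run, 6 to 8 members passed between media in EphrinB2 cells and 6 to 9 in vector cells, while 153 to 5686 and 169 to 5274 of all genes did; in none of them did a member change direction between media. EphrinB2 against vector in complete medium and the interaction kept 0 members throughout. In osteogenic medium leaving out 1 library gave 0 to 4. No paired analysis was possible because no label gives a replicate number.

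Some differences between EphrinB2 and vector cells and some interactions turned sign; 0 of them had passed the threshold, and they include the Nr3c1 difference of -0.42 in osteogenic medium and interactions of -0.51 for Nr3c1, 0.57 for Tsc22d3 and 0.35 for Cdkn1c. Without both libraries that stood apart, EphrinB2 against vector was -0.07 for Nr3c1 and 0.35 for Tsc22d3 in complete and 0.03 for Nr3c1 in osteogenic medium, and the interaction was 0.10 for Nr3c1, -0.24 for Tsc22d3, -0.029 for Cdkn1c and 0.0079 for Errfi1. Quantile normalization gave -0.19, -0.11, -0.18 and -0.17 for Fkbp5, Sgk1, Dusp1 and Errfi1 in osteogenic medium and interactions of -0.16 for Fkbp5 and -0.25 for Pdk4. Removing the length trend gave -0.0016 for Zbtb16 in complete medium, -0.099 for Dusp1 and -0.081 for Errfi1 in osteogenic medium and -0.096 for the Pdk4 interaction. A pseudocount of 0.1 gave -0.098 for the Cdkn1c interaction, and median scaling 0.012 for that of Errfi1. Leaving out 1 library gave -0.066 to 0.25 (Nr3c1), -0.15 to 0.022 (Fkbp5), -0.80 to 0.35 (Tsc22d3) and -0.14 to 0.18 (Errfi1) in complete medium, -0.87 to 0.032 (Nr3c1), -0.003 to 0.041 (Fkbp5), -0.084 to 0.14 (Dusp1) and -0.16 to 0.19 (Errfi1) in osteogenic medium, and interactions of -0.0033 to 0.17 (Fkbp5), -0.0039 to 1.14 (Tsc22d3), -0.18 to 0.17 (Errfi1) and -0.27 to 0.30 (Pdk4). The cause was not tested.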
